A study of Mus musculus with 66 samples.

Results

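The spinal cord of *Rorb* h5/h5 mice was compared with that of wild-type DBA/1J mice, the inbred strain on which the h5 mutation arose. These are 6 of the 66 libraries of the series, chosen by their labelled tissue and genotype, with 3 mice in each group. The mutation is spontaneous, was kept as its own line, and is a T-to-C change in the start codon of *Rorb1*, the *Rorb* isoform found broadly in the central nervous system; the h5 mice were labelled H5/H5 and are homozygous, and the DBA/1J mice carry no *Rorb* mutation. Whole cords were flushed out of the spine with buffer and frozen, and polyadenylated RNA was sequenced, so each value is an average over every cell type of the cord and any tissue that came with it. The DBA/1J mice were 2 males of 8.7 and 8.9 weeks and a female of 8.4 weeks, and the h5/h5 mice were a male of 8.7 weeks and females of 8.7 and 8.4 weeks. All 17210 genes with enough reads were tested.

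RORβ is a nuclear receptor that binds DNA as a transcription factor. In the dorsal horn of the spinal cord it marks inhibitory interneurons that hold back sensory input to the flexor circuits, and mice without it walk with a high-stepping gait. Separate first exons give the *Rorb1* and the *Rorb2* isoform, and the latter belongs to the retina and the pineal gland. The bases around the start codon that h5 changes are printed here from the reference transcript Rorb-203 of GENCODE vM39, with the wild-type start codon in capitals, because this is the site of the mutation:
*Rorb1* start: agcggccacatcATGcgagcacaaatt
The next ATG in the same reading frame lies 74 codons further on in this transcript.

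Total counts ranged from 36285179 to 45267409 per library, and h5/h5 replicate 3 stood apart from the other 5. *Prx*, which encodes periaxin of Schwann cells, was at 0.499, 0.352 and 0.851 CPM (counts scaled to the library's size) in the DBA/1J libraries and at 6.43, 0.417 and 82.2 CPM in h5/h5 replicates 1, 2 and 3. *Pmp22*, a membrane protein gene of peripheral myelin that the cord also expresses, was at 78.2 to 83.02 CPM in DBA/1J and at 104, 85.5 and 344 CPM in h5/h5 libraries. Summed over the list of meningeal and fibroblast genes, the level was 900.1 CPM in h5/h5 replicate 3 and 137 to 192 CPM in the other 5 libraries. Transcripts of nerve root and meninges thus differed between libraries of 1 group, and their part in the results below was not tested. The cord's identity was clear in the files, with 26 of 27 Hox genes of the cord passing the filter on low counts. The first principal component of the 500 most variable genes held 45.3% of their variance, had h5/h5 replicate 3 at one end and the 3 females apart from the 3 males, and was related to sex (r2 = 0.86) more than to genotype (r2 = 0.22). Sex was unbalanced between the groups. The main counts below are given with and without h5/h5 replicate 3.

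**Figure D1:**
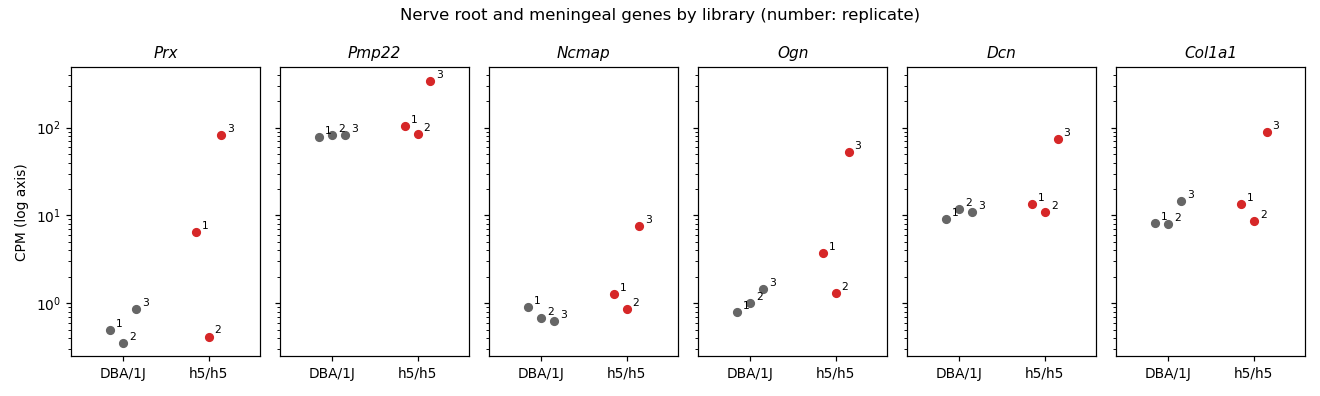
Level in CPM on a log axis of Schwann cell genes (*Prx*, *Pmp22*, *Ncmap*) and meningeal genes (*Ogn*, *Dcn*, *Col1a1*) in each spinal cord library, with each point labelled by its replicate number. In h5/h5 replicate 3 every one of these genes was above the other 5 libraries, with *Prx* at 82.2 CPM, and h5/h5 replicate 1 came next for *Prx* at 6.43 CPM.

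*Rorb* RNA was not lower in the h5/h5 cord than in DBA/1J. It was at 40.0, 42.7 and 39.5 CPM in the DBA/1J libraries and at 50.3, 49.6 and 44.9 CPM in the h5/h5 libraries. Every h5/h5 library was above every DBA/1J library, with a log2 fold change of 0.24 (standard error 0.06). That difference passed neither edgeR's quasi-likelihood test over all genes (adjusted p = 0.376) nor DESeq2 (adjusted p = 0.0533). The study, whose test was also DESeq2, reported *Rorb* as significantly different in this comparison. Without h5/h5 replicate 3, DESeq2 called *Rorb* higher, with a log2 fold change of 0.30 (standard error 0.07; adjusted p = 0.00825), and without any other library it did not. For this single gene the 2-sided exact permutation test gave p = 0.1, which is the smallest p that 3 against 3 allows. The gene is at chr19:18930609-19111196 of GRCm38, and 5 other genes tested lie within 1 Mb of it. None of them passed either tool, and the largest log2 fold change among the 5 was that of *Trpm6*, a magnesium channel gene, at 0.34 (standard error 0.28). *Carnmt1*, a carnosine methyltransferase gene, was the single neighbour of the 5 whose groups did not overlap, at 4.39 to 4.99 CPM in DBA/1J and 5.11 to 6.71 CPM in h5/h5 libraries. *Ostf1*, *Nmrk1* and *D030056L22Rik*, the other neighbours, had log2 fold changes of 0.00, 0.20 and 0.01.

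Few genes passed a test over all genes. At an adjusted p under 0.05 edgeR called 1 gene of 17210, a share of 0.00581%, while DESeq2, the tool the study used, called 91 of the 15773 genes that passed both filters (0.577%), 61 higher (0.387%) and 30 lower (0.19%) in h5/h5 cord. At an unadjusted p under 0.05, edgeR had 846 genes higher (4.92%) and 686 lower (3.99%), which became 980 and 779 without h5/h5 replicate 3, and the median log2 fold change of all genes was 0.00. The groups did not overlap for 1174 genes that were higher (6.82%) and 1327 that were lower (7.71%), and for 89 of the 91 genes called by DESeq2. Without h5/h5 replicate 3 DESeq2 called 141 genes, 63 of them among the 91. Without DBA/1J replicate 1, DBA/1J replicate 2 or h5/h5 replicate 1 it called 34, 57 and 25 genes, and without DBA/1J replicate 3 it called 279. With sex as a covariate it called 55 genes, 51 of them among the 91. The 1 gene that edgeR called is named below, and every other call below on all libraries of this comparison was by DESeq2 alone.

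**Figure D2:**
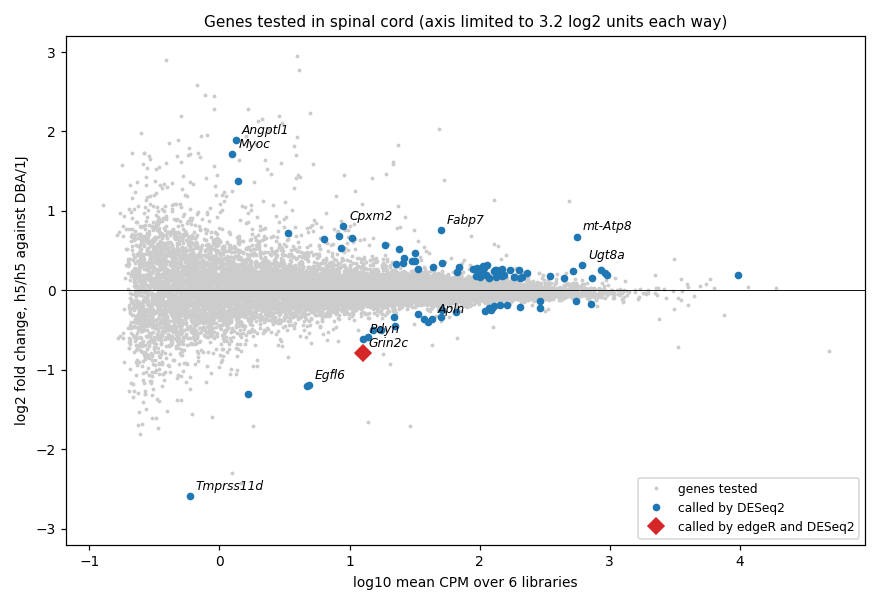
Each point is a gene tested, with the log10 of its mean CPM over the 6 libraries on the x axis and the log2 fold change of h5/h5 against DBA/1J on the y axis, which stops at 3.2 in each direction. Genes called by DESeq2 lie at small fold changes among abundant genes and at larger ones among rare genes, and *Grin2c*, the gene both tools called, lies at -0.79.

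*Grin2c* was the gene both tools called. It encodes the GluN2C subunit of NMDA-type glutamate receptors, which outside the cerebellum is known from astrocytes and some interneurons. Its level was 15.8, 16.7 and 15.6 CPM in DBA/1J and 9.63, 8.97 and 9.10 CPM in h5/h5 libraries, so the groups were far apart and each was tight. The log2 fold change was -0.79 (standard error 0.07), with an adjusted p of 0.0376 in edgeR and 4.17e-10 in DESeq2. Without h5/h5 replicate 3 it was -0.78 (adjusted p = 0.0364 in edgeR). Leaving out any other library kept the size, from -0.82 to -0.76, but not the edgeR call. Between mice of the same labelled sex the difference was -0.70 in females and -0.82 in males, and between mice of the same labelled age it was -0.73 at 8.7 weeks and -0.74 at 8.4 weeks, all as log2 of CPM plus 0.5. Among the 7 NMDA receptor subunit genes, a list added after the values were seen, 6 were lower in h5/h5 cord and *Grin2c* was the single call. *Grin1*, the obligatory subunit, was at 297 to 320.4 CPM in DBA/1J and 279.9 to 284 CPM in h5/h5 libraries, a log2 fold change of -0.12 (standard error 0.04) that passed neither test.

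**Figure D3:**
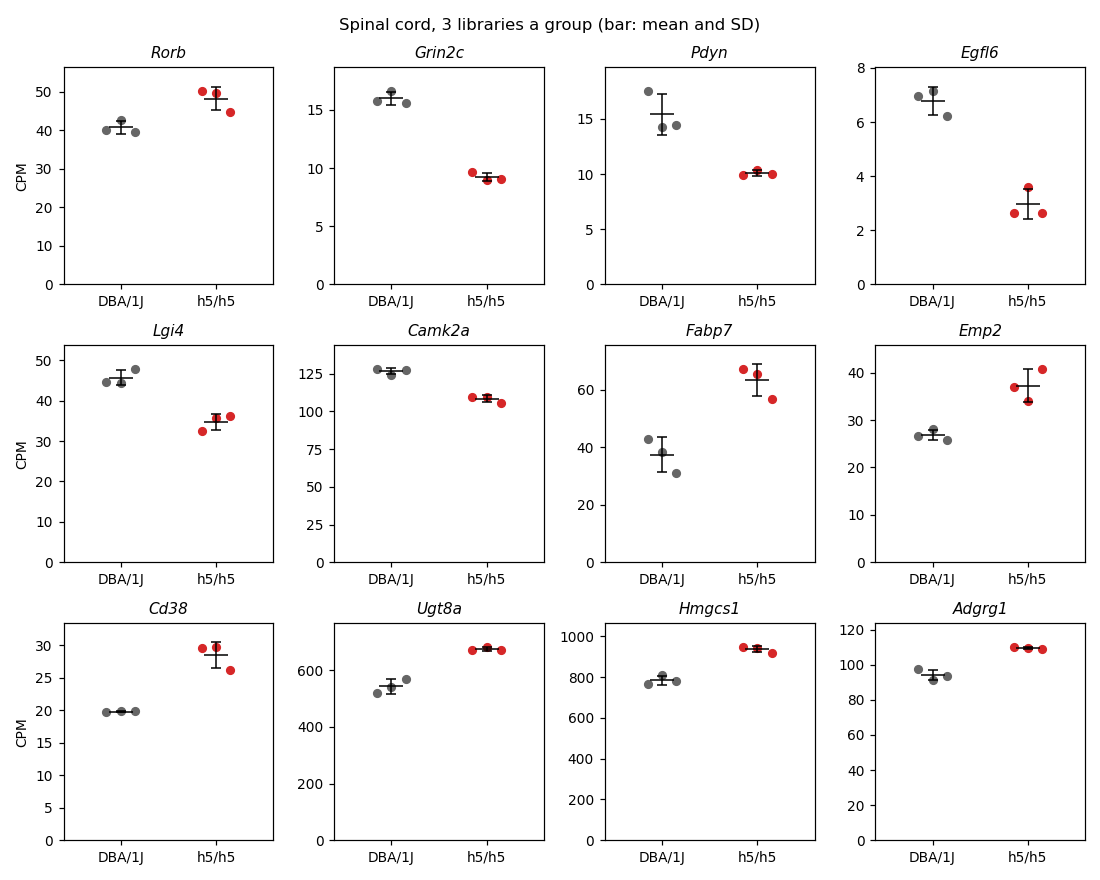
CPM of 12 genes in the 3 DBA/1J (gray) and 3 h5/h5 (red) spinal cord libraries, with the mean and SD as a bar and every axis starting at 0. *Grin2c*, *Pdyn*, *Egfl6*, *Lgi4* and *Camk2a* were lower and the other 7 genes higher in each h5/h5 library than in any DBA/1J library.

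*Pdyn*, *Camk2a* and several receptor genes were lower by DESeq2 alone, and were picked from its calls. *Pdyn*, which encodes the opioid precursor prodynorphin of inhibitory dorsal horn neurons, was at 17.6, 14.3 and 14.4 CPM in DBA/1J and at 9.89, 10.4 and 9.996 CPM in h5/h5 libraries. The groups did not overlap, and the log2 fold change was -0.61 (standard error 0.10; DESeq2 adjusted p = 0.000197, edgeR adjusted p = 0.136). *Camk2a*, a calcium-dependent kinase of excitatory synapses, fell by 0.22 on the log2 scale, the AMPA receptor subunit gene *Gria1* by 0.22 and the GABA-A receptor subunit gene *Gabra2* by 0.21, each called by DESeq2. *Scg2*, a secretogranin of dense-core vesicles, fell by 0.22, *Gpr26*, an orphan receptor gene, by 0.27 and *Cacna1i*, a T-type calcium channel gene, by 0.25, also DESeq2 calls. Among 17 dorsal horn inhibitory markers tested *Pdyn* was the single call, 8 were higher and 9 lower, and the median log2 fold change was -0.02. The calls without h5/h5 replicate 3 were *Pdyn* lower and *Rorb* higher. Of 20 genes of GABA and glycine neurons 9 were higher and 11 lower, with *Gabra2* the single call, and of 25 potassium channel genes 11 were higher and 14 lower with none called. Among the 4 AMPA receptor subunit genes 2 were higher and 2 lower, with *Gria1* the single call and a median of 0.01. *Sstr2*, a somatostatin receptor gene, was at 5.80 to 7.01 CPM in DBA/1J and 4.52 to 5.09 CPM in h5/h5 libraries without a call, and *Gal*, the galanin gene, at 2.71 to 3.92 and 1.83 to 2.48 CPM. No gene was called by either tool among 19 markers of dorsal horn excitatory neurons or 19 of motor neurons, and in the latter list 15 were lower with a median of -0.12, which was -0.07 without DBA/1J replicate 2, -0.08 without h5/h5 replicate 3 and -0.07 with sex as a covariate. *Chat*, the acetylcholine-synthesizing enzyme of motor neurons, was at 21.9 to 23.4 CPM in DBA/1J and 18.2 to 21.8 CPM in h5/h5 libraries. In whole cord, fewer cells of a type and less RNA per cell cannot be told apart.

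Genes of glia were called in both directions by DESeq2. *Fabp7*, the fatty acid binding protein of radial glia and astrocytes, was at 43.0, 38.2 and 30.9 CPM in DBA/1J and at 67.4, 65.6 and 56.9 CPM in h5/h5 libraries. The lowest h5/h5 library stood well above the highest DBA/1J library. Its log2 fold change was 0.76 (standard error 0.11; DESeq2 adjusted p = 1.82e-11, edgeR adjusted p = 0.108). Of 19 astrocyte markers tested, DESeq2 called 4 higher (*Fabp7*, *Aqp4*, *Gja1* and *Slc1a3*) and 1 lower (*Etnppl*), against 0.387% and 0.19% of all genes, and the list's median was 0.03, with 11 higher and 8 lower. The 4 higher calls stayed without h5/h5 replicate 3, and *Etnppl* was not called. *Aqp4*, the water channel of astrocyte endfeet, was at 796 to 910.1 CPM in DBA/1J and 952 to 1036 CPM in h5/h5 libraries, a log2 fold change of 0.22. *Gfap* and *Aldh1l1*, defining astrocyte markers, were not called, at 0.12 and -0.01. *Etnppl*, a phospholyase of astrocytes, was at 11.6, 18.7 and 19.5 CPM in DBA/1J and at 10.2, 12.5 and 10.5 CPM in h5/h5 libraries, and the groups overlapped.

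DESeq2 also called *Cd38*, *Dbi*, *Emp2*, *Ednrb* and *Adgrg1* higher. *Cd38*, which encodes an enzyme that consumes NAD, was within 19.7 to 19.8 CPM in all DBA/1J libraries and at 29.5, 29.8 and 26.2 CPM in h5/h5 libraries. Its log2 fold change was 0.53 (standard error 0.06), and it became an edgeR call without h5/h5 replicate 3. *Emp2*, a membrane protein gene, was at 25.9 to 28.1 CPM in DBA/1J and 34.1 to 40.9 CPM in h5/h5 libraries, and *Dbi*, which encodes the acyl-CoA binding protein, at 114 to 126 and 137 to 146 CPM. *Ednrb*, the endothelin B receptor of astrocytes, had a log2 fold change of 0.28 and *Adgrg1*, an adhesion receptor of glial precursors, 0.22. *Dio2*, the thyroid hormone activating enzyme of astrocytes, was lower by DESeq2 at 18.8 to 22.1 CPM in DBA/1J and 12.1 to 17.0 CPM in h5/h5 libraries. Microglial genes were not called, and 15 of 17 were lower with a median of -0.15, which was -0.02 without DBA/1J replicate 3.

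Most myelin genes had a higher mean in h5/h5 cord. Of 24 tested, 21 were higher with a median log2 fold change of 0.12, against 8673 of 17210 genes and a median of 0.00 among all genes tested, and DESeq2 called 5 higher (0.387% of all genes), among them *Ugt8a*, *Fa2h* and *Cldn11*. *Ugt8a*, the enzyme that makes the myelin lipid galactosylceramide, had the smallest adjusted p of all genes in DESeq2. It was at 518, 541 and 568 CPM in DBA/1J and at 672, 684 and 671 CPM in h5/h5 libraries, a log2 fold change of 0.32 (standard error 0.04; DESeq2 adjusted p = 1.78e-12, edgeR adjusted p = 0.106). *Cldn11*, the tight junction claudin of oligodendrocytes, was at 433, 459.7 and 531 CPM in DBA/1J and at 563, 572 and 559 CPM in h5/h5 libraries. Its groups did not overlap, and the log2 fold change was 0.25 (standard error 0.07; DESeq2 adjusted p = 0.00271). *Mbp*, myelin basic protein, was not called, with a log2 fold change of 0.04. *Mag*, a glycoprotein of the inner myelin surface, was at 674 to 682 CPM in DBA/1J and 680.1 to 689 CPM in h5/h5 libraries. Without h5/h5 replicate 3, 22 of 24 myelin genes were higher, the median was 0.11 and DESeq2 called 2.

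Genes of cholesterol synthesis shared 1 direction. All 25 genes tested of this list had a higher mean in h5/h5 cord, with a median log2 fold change of 0.13, and 12 of the 25 did not overlap between groups (6.82% of all genes). DESeq2 called 5 higher (0.387% of all genes), among them *Hmgcs1*, which makes the precursor of mevalonate, *Idi1*, *Msmo1* and *Stard4*. *Hmgcs1* was at 764, 809 and 781 CPM in DBA/1J and at 949, 944 and 919 CPM in h5/h5 libraries, with a log2 fold change of 0.26 (standard error 0.04; DESeq2 adjusted p = 6.59e-11). *Idi1*, an isomerase of isoprenoid synthesis, was at 167 to 194 and 197 to 233 CPM, a log2 fold change of 0.26. Without h5/h5 replicate 3 all 25 were still higher, the median was 0.15 and DESeq2 called 6. Among 23 genes of fatty acid and sphingolipid synthesis, DESeq2 called *Ugt8a*, *Fa2h* and *Scd1* higher (0.387% of all genes). *Ugt8a* and *Fa2h* are also members of the myelin list above. Of the 23 genes 18 were higher, and the median was 0.07.

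Promoters of 3 of these genes are shown because each holds the letters AGGTCA, the half-site that ROR receptors are known to bind. The 250 bases before the start site were read from RefSeq on GRCm38.p6, 5′ to 3′ along the gene, with AGGTCA or its reverse complement in capitals:
*Grin2c*, chr11:115267244-115267493, minus strand: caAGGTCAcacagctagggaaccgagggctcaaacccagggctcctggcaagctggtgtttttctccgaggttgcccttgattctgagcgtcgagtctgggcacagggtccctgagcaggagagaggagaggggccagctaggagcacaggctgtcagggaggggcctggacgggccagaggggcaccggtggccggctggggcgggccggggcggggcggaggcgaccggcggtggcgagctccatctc
*Fabp7*, chr10:57784673-57784922, plus strand: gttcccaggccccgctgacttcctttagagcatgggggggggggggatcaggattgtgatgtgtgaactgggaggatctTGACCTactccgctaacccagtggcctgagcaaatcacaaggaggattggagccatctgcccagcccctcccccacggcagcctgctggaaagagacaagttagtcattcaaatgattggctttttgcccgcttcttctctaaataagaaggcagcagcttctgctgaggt
*Hmgcs1*, chr13:119690101-119690350, plus strand: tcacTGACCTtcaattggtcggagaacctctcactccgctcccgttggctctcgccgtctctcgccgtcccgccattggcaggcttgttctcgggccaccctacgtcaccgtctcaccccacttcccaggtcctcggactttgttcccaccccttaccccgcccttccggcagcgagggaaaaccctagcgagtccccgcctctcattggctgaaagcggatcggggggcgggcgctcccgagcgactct
On both strands AGGTCA was found in 7 of 72 windows (9.72%) of the 59 DESeq2-called genes that matched the RefSeq table. It was found in 4607 of 32851 windows (14%) of 27025 RefSeq genes, which were not limited to the genes tested in cord. The share before the called genes was below that before the RefSeq genes, and the difference was not tested. In the cholesterol synthesis list the letters were found in 5 of 20 windows (25%), those of *Dhcr7*, *Hmgcs1* and *Insig1*. The longer TAGGTCA was found before *Fabp7* alone among the called genes, and in 2.23% of all windows.

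*Egfl6*, which encodes a secreted EGF-like protein, was called lower by DESeq2, which alone called each gene of this paragraph. It was at 6.96, 7.16 and 6.20 CPM in DBA/1J and at 2.65, 3.59 and 2.64 CPM in h5/h5 libraries, a log2 fold change of -1.19 (standard error 0.15; DESeq2 adjusted p = 2.77e-07, edgeR adjusted p = 0.106). Each h5/h5 library was below each DBA/1J library. *Lgi4*, a secreted glial protein gene needed for peripheral myelination, was at 44.4 to 47.9 and 32.5 to 36.1 CPM. *Igfbp4*, an insulin-like growth factor binding protein gene, was higher at 13.6 to 17.1 and 20.1 to 24.7 CPM. *Apln*, the peptide ligand apelin, and *Aplnr*, its receptor, were called in opposite directions, with log2 fold changes of -0.36 and 0.41. *Heph*, the iron oxidase hephaestin, was lower at 15.97 to 19.5 and 12 to 12.98 CPM. *Cpxm2*, *Angptl1*, *Sned1* and *Fgl2* were called higher with their highest value in h5/h5 replicate 3. Among them *Cpxm2*, a secreted carboxypeptidase-like protein gene, went from a log2 fold change of 0.81 to 0.46 and *Angptl1*, an angiopoietin-like gene, from 1.90 to 0.80 without that library.

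The remaining genes of the smallest p values had other roles, and those of this paragraph were called by DESeq2 alone. *Marcks*, a protein kinase C substrate at the membrane, was at 93.2, 96.8 and 95.2 CPM in DBA/1J and at 125, 114 and 113 CPM in h5/h5 libraries, with a log2 fold change of 0.30 (standard error 0.04; DESeq2 adjusted p = 4.87e-06). *Arxes2* was at 60.5 to 63.9 and 74.4 to 77.9 CPM, and *Zdhhc2*, a palmitoyltransferase gene, at 38.7 to 40.6 and 46.4 to 49.2 CPM. *Mmp14*, a membrane-bound matrix protease, was at 21.9 to 23.4 and 27.8 to 30.1 CPM. Each of these 4 genes was higher in every h5/h5 library than in any DBA/1J library. *Pi15*, a secreted peptidase inhibitor gene, had a log2 fold change of 0.68 and *Rxfp1*, the relaxin receptor, 0.65. *Myoc*, which encodes myocilin, was at 0.380, 0.469 and 0.896 CPM in DBA/1J and at 2.24, 1.58 and 2.00 CPM in h5/h5 libraries, few reads with a log2 fold change of 1.72 (standard error 0.33). On the lower side, *Tmprss11d*, a membrane serine protease gene, was at 0.806 to 1.26 CPM in DBA/1J and 0.139 to 0.197 CPM in h5/h5 libraries, and the unnamed transcript *2900052N01Rik* was at 5.92 to 6.86 and 2.27 to 3.62 CPM. *Car14*, a membrane carbonic anhydrase, fell by 0.36 on the log2 scale, *Serpinb1b*, a serine protease inhibitor gene, by 0.34, *Rap1gap2*, a GTPase-activating protein gene, by 0.19, *Gpld1*, a phospholipase that cuts GPI anchors, by 0.25 and *Sphkap*, a kinase-anchoring protein gene, by 0.24, all DESeq2 calls. *Chi3l1*, a chitinase-like protein of reactive astrocytes, was at 23.9 to 27.4 and 17.0 to 20.8 CPM.

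The lists of matrix, vessel and meningeal genes moved with h5/h5 replicate 3. The median of 17 meningeal and fibroblast genes was 1.83 with that library and 0.14 without it, that of 27 extracellular matrix genes 0.27 and 0.00, that of 15 Schwann cell and nerve root genes 0.66 and 0.23, and that of 11 mural cell genes 0.34 and 0.01. No meningeal, matrix or mural gene was called by either tool in either case, and DESeq2 called 3 genes of the Schwann cell list with all libraries and 1 without h5/h5 replicate 3. The median of 11 blood genes was 0.64 with h5/h5 replicate 3 and 0.56 without it. In both cases 10 of the 11 were higher and DESeq2 called none. Summed over the blood list, the level was 349, 452 and 240 CPM in DBA/1J and 513, 420 and 465 CPM in h5/h5 libraries.

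Protein folding genes were not called. Of 26 endoplasmic reticulum folding genes, 18 were lower with a median log2 fold change of -0.05 (19 without h5/h5 replicate 3), and *Hspa5*, the chaperone BiP, was at 335, 384 and 310.3 CPM in DBA/1J and at 272, 271 and 321 CPM in h5/h5 libraries. The groups overlapped for *Hspa5*, and its log2 fold change of -0.25 (standard error 0.09) had an adjusted p of 0.601 in DESeq2. The 20 targets of PERK and ATF4, the translational branch of the unfolded protein response, split into 10 higher and 10 lower, and 7 were higher without h5/h5 replicate 3. All 16 heat shock genes were lower with a median of -0.13, and 1 was higher without h5/h5 replicate 3. Within this list *Hspa1b*, an inducible Hsp70 gene, was at 38.7, 88.2 and 8.47 CPM in DBA/1J and 17.2, 11.1 and 12.8 CPM in h5/h5 libraries, so the wild-type mice spanned the mutant range. Of 15 clock genes 14 were lower with a median of -0.11, and 5 of them did not overlap between groups (7.71% of all genes). *Cry2*, a repressor of the clock, was at 72.0 to 74.1 CPM in DBA/1J and 65.1 to 69.6 CPM in h5/h5 libraries, without a call. DESeq2 called *Per1*, *Per2* and *Dbp* of this list lower without h5/h5 replicate 3. All 13 mitochondrial transcripts had a higher mean with a median of 0.15, and DESeq2 called *mt-Atp8*, an ATP synthase subunit gene, at 0.68, joined by *mt-Nd2* and *mt-Nd4* without h5/h5 replicate 3.

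**Figure D4:**
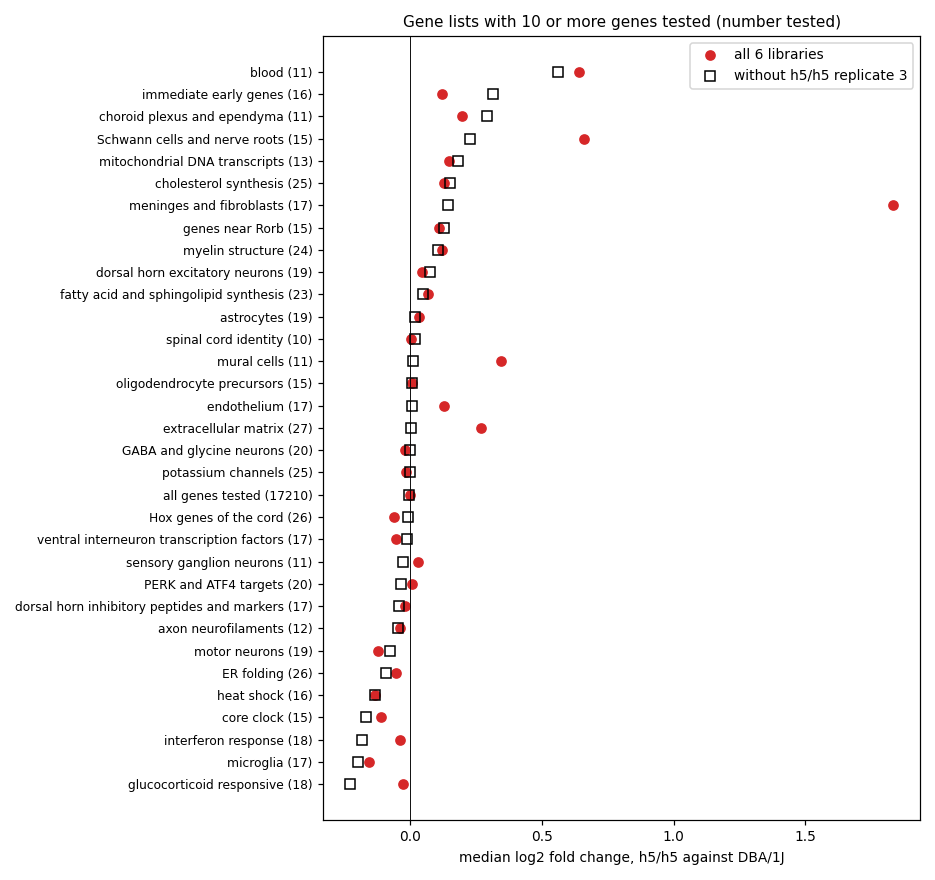
Median log2 fold change of h5/h5 against DBA/1J for each list with 10 or more genes tested (number in brackets), over all 6 libraries (filled) and without h5/h5 replicate 3 (open squares). The meningeal list moves from 1.83 to 0.14, while cholesterol synthesis stays at 0.13 and 0.15.

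The genes called in h5/h5 cord were set beside those of the C57BL/6J alleles, which share no mouse with this comparison and were 7.9 to 9.6 weeks old. Of those alleles h4 is a nonsense change predicted to affect both isoforms, h1 a duplication that takes in the first exon of *Rorb1* and sequence before it, and h2 and h3 have no known causal change. The h4 mice came from a strain that also carried a modified *Il1r1* allele, and h2 and h3 arose on an albino strain related to C57BL/6J. Only h1 arose on C57BL/6J itself, and all 4 alleles share the same C57BL/6J controls. DESeq2 called 36 of the 91 genes in h4 cord too, which is 39.6% of the h5 list and 6.2% of the h4 list, and 33 of the 36 went the same way. The 3 that went the opposite way in h4 were *Far1*, *Ro60* and *Sh3bgrl*. In h1, h2 and h3 cord it called 5, 19 and 16 of the 91, of which 0, 10 and 4 went the same way. Counting the h5 genes whether or not the other allele had a call, 61 of 90 tested in h4 went the same way. In h1, h2 and h3 these were 44, 48 and 25 of 89. The 5 genes shared with h1 (*Far1*, *Mzt1*, *Ro60*, *Tmem47* and *Vma21*) were each higher in h5/h5 and lower in h1 cord. Of the genes tested in both that also passed DESeq2's own filter, it called 4.4% of 13205 in h4 and 2.14% of 6489 in h1. In h2 it called 4.36% of 12735 and in h3 3.33% of 13167, so these shares have unlike bases. With edgeR 28 of the 91 genes were called in h4 cord, 27 in the same direction, against 1.75% of all genes there. In h1 it called 0 of the 91 against 0.289% of all genes, in h2 16 with 10 in the same direction against 2.09%, and in h3 6 with 4 in the same direction against 1.01%. Of the 141 calls without h5/h5 replicate 3, 45 (31.9%) were shared with h4, and 26 of the 36 genes were among them.

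*Grin2c* was at 13.9 to 14.9 CPM in C57BL/6J, 12.4 to 15.6 CPM in h1, h2 and h3, and 8.09 to 9.28 CPM in h4 cord, scaled over all 24 spinal cord libraries. The h4 libraries all lay below the C57BL/6J libraries, as the h5/h5 libraries lay below DBA/1J, while h1, h2 and h3 overlapped C57BL/6J. The genotype effect on *Grin2c* differed between h5 and each of h1, h2 and h3 (differences of -0.70, -0.72 and -0.78 on the log2 scale; edgeR adjusted p = 0.00642, 0.00093 and 0.00025). Between h5 and h4 the difference was -0.10 (standard error 0.11; adjusted p = 0.753). *Egfl6* was at 9.78 to 9.84 CPM in C57BL/6J, 8.53 to 11.5 CPM in h1, h2 and h3, and 3.33 to 4.50 CPM in h4 cord. Its effect in h5 differed from that in h1, h2 and h3 (adjusted p = 0.00133, 7.96e-05 and 1.83e-05), and from that in h4 by 0.10 (standard error 0.15; adjusted p = 0.842). *Fabp7* was at 34.3 to 38.0 CPM in C57BL/6J and 48.1 to 59.3 CPM in h4 cord, and its effect in h5 differed from h1 and h3 (adjusted p = 0.0398 and 0.0107) but not past the threshold from h2 (0.0544) or h4 (0.716). *Rorb* was at 7.11 to 10.1 CPM in h4 against 36.1 to 40.5 CPM in C57BL/6J, and the difference in effect between h5 and h4 was 2.45 (standard error 0.11; adjusted p = 5.50e-13).

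**Figure D5:**
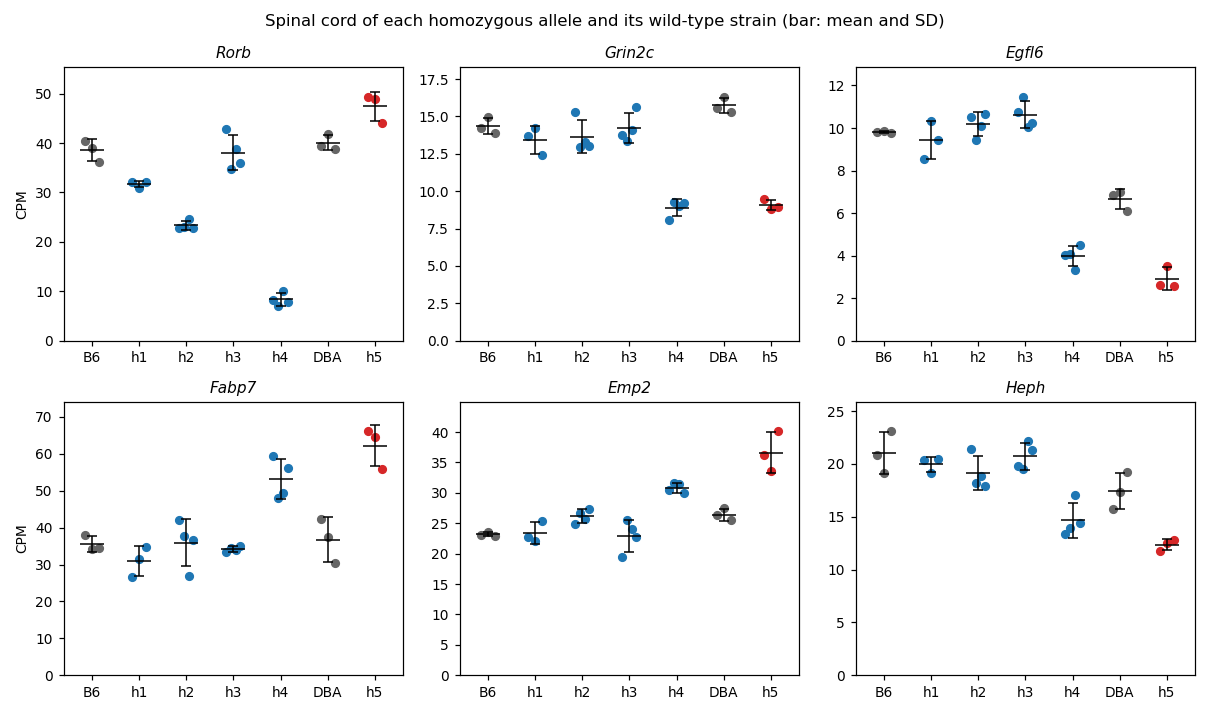
CPM, scaled over all 24 spinal cord libraries, of 6 genes in C57BL/6J (B6), the 4 alleles compared with it (blue), DBA/1J and h5/h5 (red), with mean and SD as a bar. *Grin2c* lies at 8.09 to 9.28 CPM in h4 and close to that in h5/h5, below both wild-type strains, while *Rorb* lies at 7.11 to 10.1 CPM in h4.

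Other genes differed between h5 and the C57BL/6J alleles. The effect of h5 differed from the mean effect of h1 to h4 for 30 genes of 18522 (0.162%), and the 5 with the smallest p were *Rorb*, *Ndn*, *Cd38*, *Ide* and *Klhl4*. Against the single alleles the counts were 5 for h1 (0.027%), 44 for h2 (0.238%), 399 for h3 (2.15%) and 9 for h4 (0.0486%). Among the 5 smallest p values were also *Aldh1a1*, a retinal dehydrogenase gene, against h2 and *Btaf1*, a transcription factor gene, against h3, with log2 fold changes of 0.17 and -0.06 in h5/h5 cord. *Ndn* and *Ide* had log2 fold changes of -0.05 and 0.06 in h5/h5 cord against DBA/1J and of 0.42 and 0.64 in h4 cord against C57BL/6J. *Cd38* was 0.53 higher in h5/h5 cord, and its difference from the mean of the other alleles was 0.65 (standard error 0.09; adjusted p = 0.00047). *Pdyn* differed from h2 and h3 (adjusted p = 0.00093 and 0.00344) and not past the threshold from h1 (0.0957) or h4 (0.228).

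The brain hemisection libraries of mice with the same number, sex and age were used to ask whether the effect was particular to the cord. No gene of 18190 (0%) differed between tissues by edgeR with the animal as a block, and DESeq2 also called 0. In the edgeR fit 727 genes had an unadjusted p under 0.05, a smaller share of the genes than that threshold itself. The smallest p values belonged to *Rxfp1*, *Apln*, *Pamr1*, *Pdyn* and *Htr2a*, all at an adjusted p of 0.994. *Fabp7* was called by DESeq2 in h5/h5 brain, cortex, hippocampus and cerebellum too, with log2 fold changes of 0.76, 0.87, 1.33 and 0.78. *Heph* was called in the same 4 tissues at -1.04, -1.54, -1.10 and -1.12, and *Apln* in brain, cortex and hippocampus at -0.86, -1.49 and -1.47. *Rorb* was called higher by DESeq2 in all 4, with log2 fold changes of 0.40, 0.72, 0.47 and 0.56, where the cord had 0.24 and no call. *Pdyn* was at 21.3 to 24.6 CPM in DBA/1J and 22.4 to 23.6 CPM in h5/h5 brain, a log2 fold change of 0.00. *Grin2c* was at 27.4, 61.02 and 57.9 CPM in DBA/1J brain and 54.1, 63.1 and 48.2 CPM in h5/h5 brain, with a log2 fold change of 0.18. The groups overlapped, and the lowest of these values was that of a DBA/1J library at 27.4 CPM. Cortex, hippocampus and cerebellum came from other mice, 7 weeks old, with 2 females and 1 male in each group. In dissected cortex it was at 33.6 to 38.2 CPM in DBA/1J and 16.8 to 20.7 CPM in h5/h5 mice, and in hippocampus at 28.8 to 32.7 and 14.4 to 17.7 CPM, with log2 fold changes of -0.95 and -0.93. In cerebellum, where *Grin2c* is abundant in granule cells, it was at 234 to 275 CPM in DBA/1J and 262 to 306 CPM in h5/h5 mice. DESeq2 called *Grin2c* in cortex and hippocampus (adjusted p = 2.46e-12 and 3.53e-14) and in neither brain nor cerebellum, and the difference between these tissues and the cord was not tested for the dissected regions.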

How the data were processed

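Per the labels and the study's methods, the authors trimmed the reads with Trim Galore, aligned them to GRCm38 and estimated counts with RSEM. The deposited expected counts are estimated counts of fragments per gene, and 5.19% of the values used were not whole. RSEM also gave TPM, scaled by the authors to gene length and library depth, which entered no test. The annotation version is not given in the sources used here. Symbols were joined to 41403 of 45706 identifiers, and RefSeq positions on GRCm38 to 31348.

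After rounding to whole numbers, a quasi-likelihood test was fitted with edgeR 4.0.16 in R 4.3.3, using TMM scaling, the filterByExpr filter and a Benjamini-Hochberg adjusted p under 0.05, with DESeq2 1.42.0, the study's tool, as an alternative. CPM values use TMM-scaled library sizes. Identifiers without a symbol held 1.74% to 9.53% of counts per library, and 1 identifier held most of these. Its share was 6.69%, 9.35% and 1.56% in the DBA/1J libraries and 3.94%, 2.9% and 4.06% in the h5/h5 libraries. The statistical scripts were tested on simulated data. P-values measure the spread between the mice of a group.

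The genes named were drawn from *Rorb*, genes edgeR called, the 25 smallest edgeR p values, the 12 higher and 12 lower DESeq2 calls with the smallest p, the called members of each list or up to 4 others with its defining markers, genes within 1 Mb of *Rorb* and the 5 genes with the smallest p in each test of a difference. Some further DESeq2 calls and list members were named after their values were seen. The members and lists were chosen with earlier results of these data known. Differences between alleles came from 1 edgeR fit of all 24 spinal cord libraries, and the difference between tissues from 12 libraries with the animal as a block. Some called genes are not reported here.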

Additional observations from a re-analysis of the deposited data

Results flagged for a closer look

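The tests of a difference between alleles in spinal cord found genes whose genotype effect in h5 was unlike that in the C57BL/6J alleles. There were 30 such genes against the mean of h1 to h4, 5 against h1, 44 against h2, 399 against h3 and 9 against h4 (edgeR, adjusted p under 0.05). The h5 mice differ from the other alleles in strain as well as in mutation, and strain and allele cannot be told apart here. Groups of 3 libraries were too small for the check on single values far from the rest.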

How the results depend on the processing

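The edgeR count of 1 gene was 91 with DESeq2, 25 with no low-count filter, 62 with all spinal cord groups in 1 fit, 10 with the replicate number as a block, and 0 with sex as a covariate and with age as a block. With DESeq2 size factors it stayed at 1. Leaving out each library in turn gave 0 to 2 genes with edgeR and 25 to 279 with DESeq2. With sex, the replicate block or age in the model, analyses added after the data were seen, DESeq2 called 55, 54 and 40 genes. *Grin2c* kept its direction under each alternative, but with sex as a covariate (-0.79) and with the age block (-0.77) its edgeR call was lost, as it was on leaving out any library but h5/h5 replicate 3 (range -0.82 to -0.76). The *Rorb* log2 fold change ranged from 0.22 to 0.29 over the libraries left out and passed the threshold in none of these edgeR fits. With DESeq2, fits added after the values were seen, it ranged from 0.22 to 0.30 and passed only without h5/h5 replicate 3 (adjusted p = 0.00825). The astrocyte median ranged from -0.0093 to 0.0938, the meningeal median from 0.14 to 2.30 and the Schwann cell median from 0.23 to 0.79 over the libraries left out. Cholesterol synthesis ranged from 0.09 to 0.15, myelin from 0.09 to 0.15, heat shock from -0.18 to -0.08, microglia from -0.25 to -0.02 and endoplasmic reticulum folding from -0.09 to -0.02. Of genes whose effect differed between h5 and the mean of the C57BL/6J alleles, the count of 30 became 19 with sex as a covariate, and DESeq2 called 316. Against h1, h2, h3 and h4 alone DESeq2 called 144, 162, 767 and 145, and with sex as a covariate the edgeR count against h3 was 257. Same-numbered h5/h5 and DBA/1J mice are different animals that share some labelled ages and sexes, and no label pairs them. Their deviations from the group means correlated at -0.04, 0.18 and 0.22, and not every library correlated best with its own number. The leading component's share of variance was 35.7% over all genes tested and 45.3% over the 500 most variable.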
